A study of Mus musculus with 16 samples.

Results

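Potassium channel subunit genes were taken as every RefSeq gene of the deposited table whose symbol begins with Kcn, which gave 97 genes of 24169, or 180 transcripts of 33702. The symbols were sorted by subfamily. Pore-forming voltage-gated subunits of the Kcna to Kcnd subfamilies made up 17 genes, Kcnh 8, Kcnq 5 and the modifier subunits Kcnf, Kcng, Kcns and Kcnv 10. Inward rectifiers (Kcnj) made up 15 genes, tandem-pore leak channels (Kcnk) 14 and channels gated by calcium or sodium (Kcnma1, Kcnn, Kcnt, Kcnu1) 8. A further 16 were auxiliary subunits (Kcnab, Kcne, Kcnip, Kcnmb). The remaining 4 symbols (Kcnq1ot1, Kcnrg, Kcnd3os and Kcnmb4os1) carry the prefix but do not encode channel subunits, which leaves 93 subunit genes.

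The libraries came from embryoid bodies (EBs), free-floating aggregates of differentiating cells, that were grown from the R1 mouse embryonic stem (ES) cell line for 4 days without Lif, the factor that holds ES cells undifferentiated. Day 0 bodies were taken before retinoic acid (RA) was added and day 4 bodies after 4 days in 2 uM RA, so both groups had been without Lif, and the labelled cell type, embryonic stem cells, names their origin. Each day had 2 RNA samples from biological replicates, and each RNA sample was split into 4 vials that differed only in the synthetic spike-ins added, which gave 16 stranded total RNA libraries. All cells derive from 1 line, and day 4 bodies were older in culture as well as treated, so RA and time cannot be told apart. Values are FPKM (fragments per kilobase of transcript, scaled to the size of the library) and were averaged over the 4 vials of an RNA sample, so that n = 2 per day. Per the labels, each library was sequenced to between 39000000 and 59000000 paired-end reads. The table holds no read counts, so the number of reads behind a single value is not known here and a gene without reads can only be called listed at 0.

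Potassium channels let K+ leave or enter the cell along its gradient and so set the resting membrane potential and end electrical signals. Voltage-gated Kv channels assemble from several alpha subunits around a pore and open on depolarisation, inward rectifiers pass current best near rest, and tandem-pore channels carry the background leak. Auxiliary subunits form no pore and instead change the gating, trafficking or drug response of the alpha subunits they join. Many of these channels are best studied in neurons, heart and smooth muscle.

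The vials of mixes 3 and 4 of day 0 replicate 2 stood apart from the other day 0 vials. Among the 43 Kcn genes at 0.1 FPKM or more at day 0, both of these vials lay below the other 6 day 0 vials for 21 genes (48.8%) and above them for 9 (20.9%), against 54.5% and 28.7% of all genes at that level. The summed FPKM of the 97 genes was 36.9 and 38.3 in these vials, 44.5 and 40.0 in the mix 1 and mix 2 vials of the same RNA, and 47.3 to 51.9 in the vials of day 0 replicate 1. At day 4 the sums lay between 78.6 and 87.7, so the 8 vials of each day did not overlap. The counts of calls are therefore given with and without this pair of divergent vials.

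The 97 genes were lowly expressed as a class. At day 0 11 of them (11.3%) had a mean of 1 FPKM or more, against 46.8% of all genes, and at day 4 16 (16.5%), against 45.7%. Only 9 passed that level on both days, and 34 of the 92 genes tested stayed under 0.1 FPKM on both. Kcna10, Kcnj13, Kcnk15, Kcnmb3 and Kcnmb4os1 were listed at 0 in every library and were not tested. The summed level went from 48.7 and 39.9 FPKM (42.3 for replicate 2 without the divergent vials) in the day 0 RNA samples to 80.3 and 84.9 at day 4, a description with no test. As these are bulk samples, a change in the number of cells of a type and a change in the RNA per cell cannot be told apart.

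Day 4 was compared with day 0 by limma on log2(FPKM + 0.1) over all 20496 genes with a value above 0, and a gene was called at a Benjamini-Hochberg adjusted p of 0.05 or less. Of the 92 Kcn genes tested, 26 rose (28.3%), against a background of 16% of all genes tested, and 17 fell (18.5%), against 14.5%. Without the divergent vials 31 rose (33.7%, background 27.1%) and 32 fell (34.8%, background 33.6%), and with the replicate number as a block 28 rose (30.4%, background 22.5%) and 27 fell (29.3%, background 29.1%). Thus the share of risers lay above the background in each of these fits, while the share of fallers lay near it in the last pair. Of the 26 risers 25 were also called without the divergent vials, all but Kcnip1, and all 17 fallers were. The median log2 fold change of the 92 genes was -0.01, beside -0.03 for all genes tested. For 80 of the 92 genes (87.0%) the RNA samples of the days did not overlap, against 71.1% of all genes tested. With either day 4 RNA sample left out, the fit called no gene of the table, Kcn genes included. A log2 fold change on this scale understates the change of genes near or under 0.1 FPKM, and for genes listed at 0 on a day none is given.

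**Figure D1:**
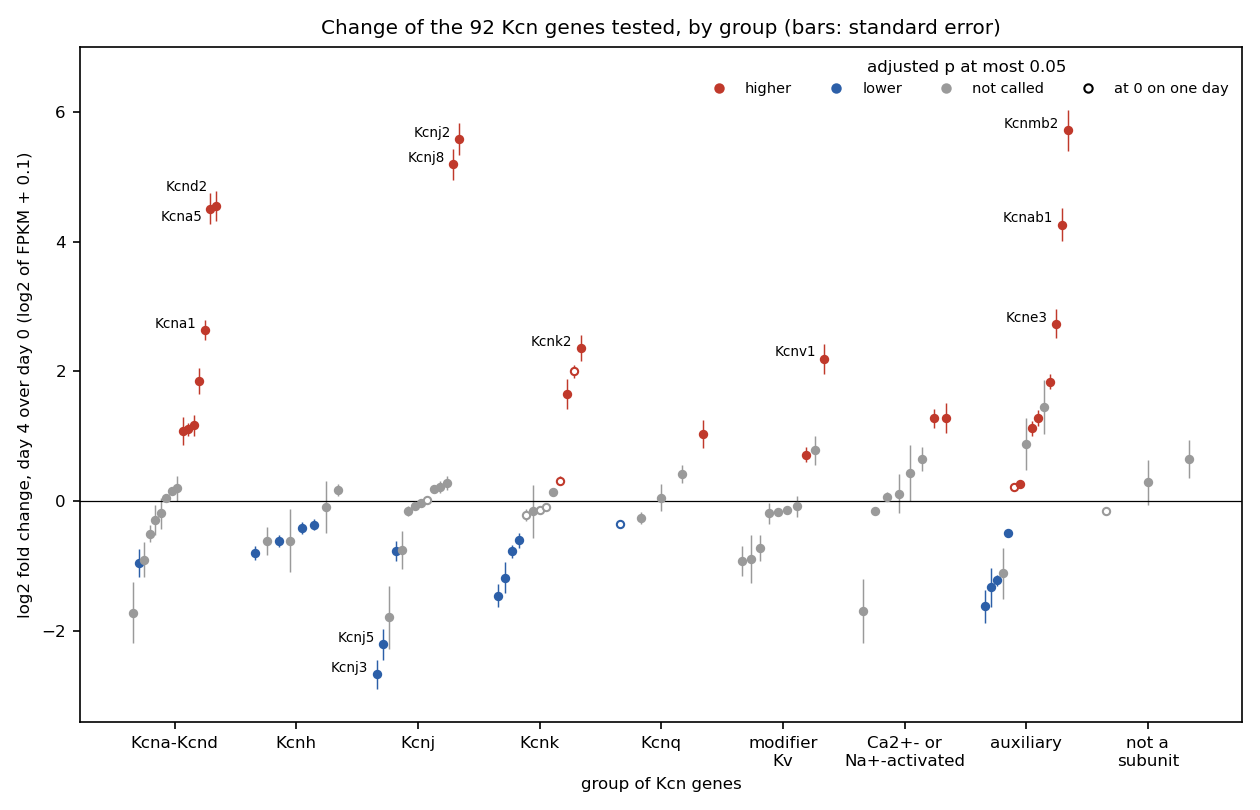
Log2 fold change of the 92 tested Kcn genes (y axis, day 4 over day 0, log2 of FPKM + 0.1), each point a gene with its standard error, grouped by subfamily along the x axis and coloured by call. Open circles are genes listed at 0 on a day, whose position depends on the added 0.1. The largest rises lie in the Kcna-Kcnd, Kcnj and auxiliary groups (Kcnmb2 at 5.71, Kcnj2 at 5.57), while the Kcnh group has 4 called genes, all lower.

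Inward rectifiers held large changes in both directions. Kcnj2, which encodes the classical strong inward rectifier Kir2.1 (GRCm38 chromosome 11, 111066164 to 111076825), measured 0.041 and 0.059 FPKM in the day 0 RNA samples and 6.54 and 7.57 at day 4. Its rise of 5.57 on the log2 scale (SE 0.25, adjusted p = 0.00460) was the largest of any pore-forming Kcn gene. Kcnj8, which encodes Kir6.1, a pore subunit of ATP-sensitive channels (chromosome 6, 142564837 to 142571614), measured 0.087 and 0.085 FPKM at day 0 and 7.11 and 6.32 at day 4, a rise of 5.19 (SE 0.24, adjusted p = 0.00460). Both genes were thus under 0.1 FPKM in the day 0 RNA samples and among the 6 highest Kcn genes by mean level. For Kcnj8 this depends on the divergent vials, without which day 0 replicate 2 was at 0.150 FPKM.

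In the opposite direction went Kcnj3 and Kcnj5, whose products Kir3.1 and Kir3.4 join into the G-protein-gated channel known from the atrium. Kcnj3 (chromosome 2, 55411798 to 55598145) measured 1.83 and 1.72 FPKM at day 0 and 0.206 and 0.184 at day 4, a log2 fold change of -2.67 (SE 0.22, adjusted p = 0.00718). Kcnj5 (chromosome 9, 32314706 to 32344380) went from 1.64 and 1.39 FPKM to 0.257 and 0.238, a log2 fold change of -2.21 (SE 0.23, adjusted p = 0.0106). In neither gene did a day 0 vial overlap a day 4 vial. Kcnj14, which encodes Kir2.4, was the remaining called member, at 0.295 and 0.248 FPKM against 0.119 and 0.117 (log2 fold change -0.77, adjusted p = 0.0332). Of the 14 Kcnj genes tested, 2 rose and 3 fell, beside 16% and 14.5% of all genes, and 9 were not called. Without the divergent vials the fallers numbered 6, beside 33.6% of all genes in that fit. The added genes were Kcnj6 and, also called with the block, Kcnj4 and Kcnj12. The summed level of the group went from 4.96 and 3.92 FPKM to 14.5 and 14.6, nearly all of it Kcnj2 and Kcnj8 at day 4. Of the sulfonylurea receptors that complete ATP-sensitive channels, Abcc9 was not called (0.211 and 0.178 against 0.178 and 0.181 FPKM) and Abcc8 was called lower only without the divergent vials or with the block.

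Kcnj2 and Kcnj8 rose together with a pair of Kv genes, Kcna5 and Kcnd2, and the promoter sequences of these 4 genes are shown because they carried the largest pore-forming changes. Given are the 250 bases before the RefSeq start (build GRCm38.p6, read along the gene's strand), with CpG dinucleotides in capitals. The stretches lie at chr11:111065914-111066163 (plus strand), chr6:142571615-142571864 (minus strand), chr6:126535556-126535805 (minus strand) and chr6:21215096-21215345 (plus strand).
Kcnj2: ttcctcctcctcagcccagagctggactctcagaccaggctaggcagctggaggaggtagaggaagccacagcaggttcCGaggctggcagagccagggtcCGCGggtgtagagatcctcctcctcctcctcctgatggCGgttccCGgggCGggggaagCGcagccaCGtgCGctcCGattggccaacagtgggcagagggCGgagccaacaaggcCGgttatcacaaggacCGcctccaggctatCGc
Kcnj8: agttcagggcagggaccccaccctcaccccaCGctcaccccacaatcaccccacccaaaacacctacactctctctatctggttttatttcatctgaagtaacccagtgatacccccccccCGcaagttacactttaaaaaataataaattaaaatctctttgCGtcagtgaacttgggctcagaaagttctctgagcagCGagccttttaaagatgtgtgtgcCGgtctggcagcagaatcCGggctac
Kcna5: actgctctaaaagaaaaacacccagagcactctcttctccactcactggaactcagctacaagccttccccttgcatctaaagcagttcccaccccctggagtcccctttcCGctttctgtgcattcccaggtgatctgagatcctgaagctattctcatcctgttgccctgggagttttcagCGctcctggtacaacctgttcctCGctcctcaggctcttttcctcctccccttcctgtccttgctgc
Kcnd2: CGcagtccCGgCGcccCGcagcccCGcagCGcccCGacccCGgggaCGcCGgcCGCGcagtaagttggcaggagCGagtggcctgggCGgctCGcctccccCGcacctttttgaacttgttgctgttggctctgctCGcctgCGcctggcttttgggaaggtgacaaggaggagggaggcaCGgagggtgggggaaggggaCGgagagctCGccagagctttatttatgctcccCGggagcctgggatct
The 4 stretches hold 14, 6, 3 and 22 CpG, so genes with similar rises differed widely in CpG content. RefSeq windows of 300 bases (250 before and 50 after the start) were matched for 71 of the 97 genes, 96 windows in all. Their median CpG number was 9 per window, against 7 over all 32851 windows. It was 7 for the windows of risers, 12 for those of fallers and 12.5 for those not called. The half-site letters AGGTCA, which nuclear receptors such as the RA receptors bind in pairs, were present on either strand in 6 of the 96 windows (6.25%), against 16.3% of all windows, and those 6 belonged to Kcnh1, Kcna10, Kcnip4, Kcnj16, Kcnf1 and Kcnk10. The paired forms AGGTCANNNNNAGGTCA and AGGTCANNAGGTCA, each of which contains AGGTCA, were in none of the 96, and each was in 3 of all 32851 windows (0.0091%), too few for a comparison. TATAAA was in 5 windows (5.21%), against 13.6% of all.

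Among the voltage-gated alpha subunits of Kcna to Kcnd, 7 of the 16 tested genes rose and 1 fell, beside 16% and 14.5% of all genes. Kcnd2, which encodes Kv4.2 of the fast transient A-type current (chromosome 6, 21215346 to 21729805), measured 0.017 and 0.037 FPKM at day 0 and 2.70 and 3.04 at day 4, a rise of 4.55 (SE 0.23, adjusted p = 0.00460). Kcna5, which encodes the delayed rectifier Kv1.5 (chromosome 6, 126532551 to 126535555), measured 0.065 and 0.040 FPKM at day 0 and 3.39 and 3.31 at day 4, a rise of 4.51 (SE 0.23, adjusted p = 0.00460). These were the only members of the group at 1 FPKM or more on either day. Kcna1, which encodes Kv1.1 of axons, lies 100908 bases from Kcna5 and went from 0.027 and 0.018 FPKM to 0.632 and 0.687 (rise of 2.63, SE 0.15, adjusted p = 0.00470). The next gene of that cluster, Kcna6, is 62527 bases further on and was not called, at 0.557 and 0.427 FPKM against 0.399 and 0.363.

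Further risers of the group were the delayed rectifier Kcnb2, the fast-deactivating Kcnc2 and the A-type Kcnd3. The log2 fold changes of these 3 genes lay between 1.08 and 1.17, and their highest level was the 0.603 FPKM of Kcnd3 in day 4 replicate 1. Kcnc1, which encodes the fast-spiking subunit Kv3.1, was the single faller, at 0.146 and 0.067 FPKM against 0.003 and 0.007. Its relative Kcnc4 and the third A-type gene Kcnd1 were called lower only without the divergent vials or with the block. Kcnd1, named here after its values were seen, measured 0.581 and 0.212 FPKM at day 0 (0.350 in replicate 2 without the divergent vials) and 0.071 and 0.014 at day 4. The Kcnd genes thus differed in direction, with Kcnd2 and Kcnd3 called higher and Kcnd1 not called or called lower by fit. Without the divergent vials 8 genes of the group were called higher and 4 lower, beside 27.1% and 33.6% of all genes in that fit. The summed level of Kcna to Kcnd went from 2.48 and 1.68 FPKM to 9.39 and 9.41.

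Of the 8 Kcnh genes, which encode the EAG, ERG and ELK channels, 0 rose, 4 fell and 4 were not called, beside 16% higher and 14.5% lower over all genes, and in a group of this size the absence of a riser is near that background. With the divergent vials left out or with the block Kcnh6 joined the fallers. Kcnh1, the EAG channel Kv10.1, went from 0.143 and 0.114 FPKM to 0.033 and 0.029 (log2 fold change -0.80, SE 0.11, adjusted p = 0.0161). Kcnh8, an ELK channel, went from 0.144 and 0.148 to 0.059 and 0.062 (log2 fold change -0.61, adjusted p = 0.0217), and Kcnh5, the sister of Kcnh1, from 0.092 and 0.086 to 0.036 and 0.048 (log2 fold change -0.42, adjusted p = 0.0395). All of these levels were low, and the group sum was 1.29 FPKM at most in an RNA sample. The highest member, Kcnh2, which encodes the ERG channel of cardiac repolarisation, was not called at 0.426 and 0.162 FPKM against 0.275 and 0.221. Its day 0 values enclosed those of day 4 only with the divergent vials. Without them day 0 replicate 2 was at 0.270 FPKM, and the gene was still not called. The median log2 fold change of the 8 genes was -0.51, beside -0.03 for all genes tested.

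Kcnq genes encode the slowly opening Kv7 channels, which carry the M-current in neurons. Kcnq5 (chromosome 1, 21398399 to 21962650) was the only member at 1 FPKM or more, at 1.41 and 1.52 FPKM at day 0 and 3.08 and 3.11 at day 4, a rise of 1.03 (SE 0.22, adjusted p = 0.0377). Kcnq1 and Kcnq3 were not called, and without the divergent vials Kcnq1 counted as higher (also with the block).

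Modifier subunits do not form channels alone and change the gating of Kcnb partners. Of the 10, Kcnv1 and Kcnv2 rose and none fell, beside 16% higher and 14.5% lower over all genes. Kcnv1, which encodes Kv8.1, went from 0.109 and 0.138 FPKM to 0.812 and 1.04 (rise of 2.20, SE 0.23, adjusted p = 0.0104). Kcnv2, which encodes Kv8.2, reached only 0.109 and 0.115 FPKM from 0.019 and 0.040 (rise of 0.72, adjusted p = 0.0225). The most abundant modifier was Kcns3, which encodes Kv9.3, at 2.34 and 2.12 FPKM against 3.57 and 4.29. This difference of 0.78 missed the threshold (SE 0.22, adjusted p = 0.0699) but passed it without the divergent vials (adjusted p = 0.0171) and with the block (adjusted p = 0.0466). Kcnf1, Kcng1, Kcng3 and Kcng4 were called lower only without the divergent vials, Kcnf1 and Kcng1 also with the block. Thus 3 of the group rose and 4 fell without those vials, beside 27.1% and 33.6% of all genes.

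**Figure D2:**
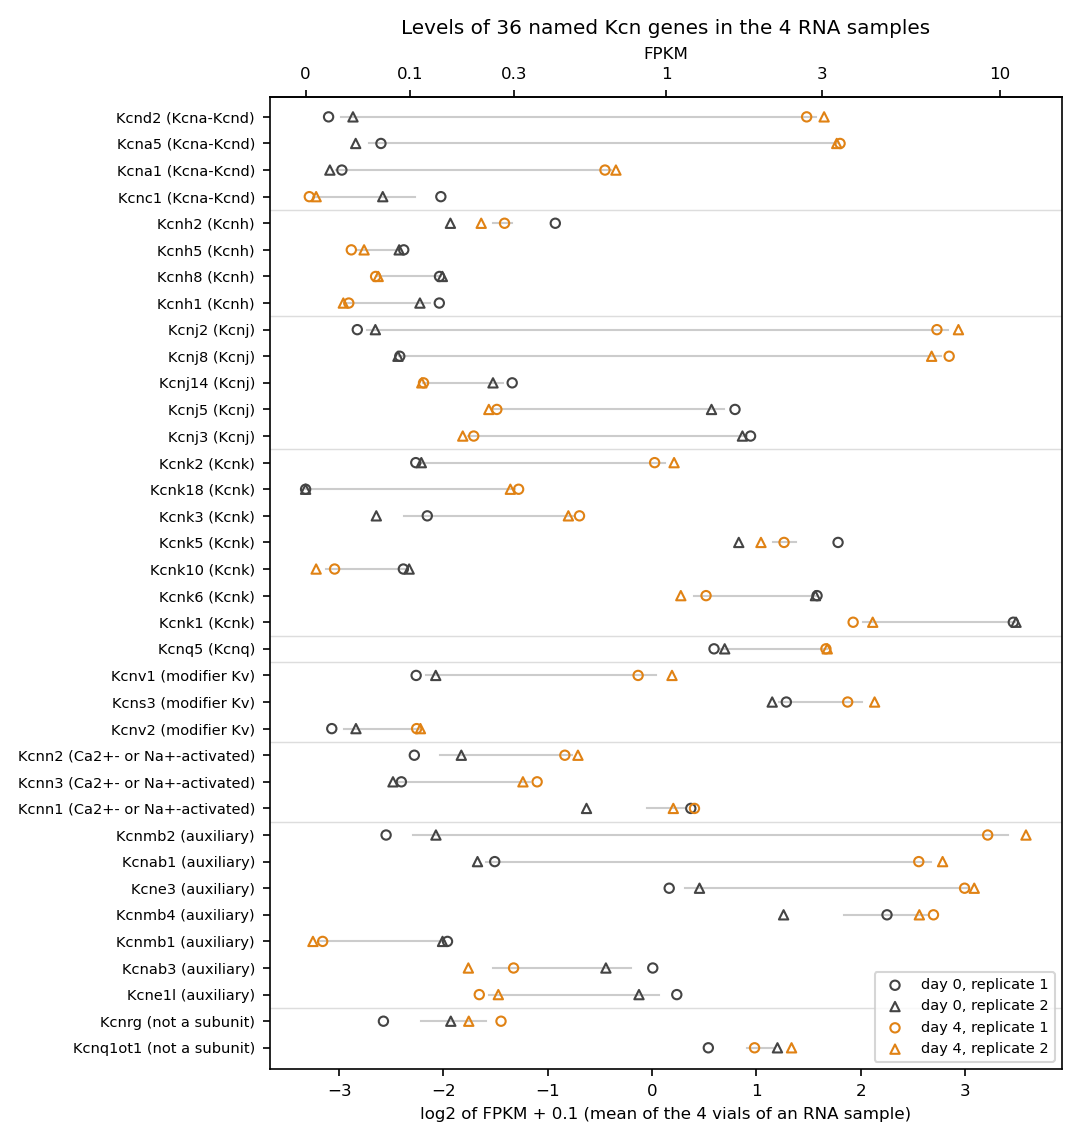
Levels of 36 named Kcn genes, a row per gene, on a log2 axis of FPKM + 0.1 with plain FPKM marked above. Grey symbols are the day 0 and orange symbols the day 4 RNA samples (circles replicate 1, triangles replicate 2, each a mean of 4 vials), and lines join the means of the days. Replicates of a day mostly lie close together, while in Kcnk5, Kcnmb4, Kcnn1 and Kcnh2 the day 0 replicates are spread.

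Tandem-pore channels held the most abundant Kcn gene of day 0, and members were called in both directions. Kcnk1, which encodes the weak leak channel TWIK-1 (chromosome 8, 125993655 to 126030685), measured 10.9 and 11.1 FPKM at day 0 and 3.71 and 4.24 at day 4, a log2 fold change of -1.46 (SE 0.18, adjusted p = 0.0133). Kcnk6, which encodes its relative TWIK-2 (chromosome 7, 29221928 to 29232522), went from 2.90 and 2.86 to 1.33 and 1.11 (log2 fold change -1.18, SE 0.23, adjusted p = 0.0340). Despite its fall Kcnk1 was still the highest Kcnk gene at day 4. Kcnk10 (TREK-2) and Kcnk13 (THIK-1) fell from levels under 0.1 FPKM, with Kcnk10 going from 0.092 and 0.099 FPKM to 0.021 and 0.007.

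The risers among the tandem-pore genes came from low levels. Kcnk2, which encodes the stretch- and lipid-gated TREK-1 (chromosome 1, 189207930 to 189402782), went from 0.108 and 0.116 FPKM to 0.918 and 1.06 (rise of 2.36, SE 0.20, adjusted p = 0.00743). Kcnk3, which encodes the acid-sensitive TASK-1, went from 0.125 and 0.060 FPKM to 0.518 and 0.474 (rise of 1.65, SE 0.24, adjusted p = 0.0182). Kcnk18, which encodes the calcium-regulated TRESK, was listed at 0 in all 8 day 0 vials and above 0 in all 8 day 4 vials, with 0.312 and 0.290 FPKM in the day 4 RNA samples (adjusted p = 0.00460). Kcnk16 was likewise at 0 in both day 0 RNA samples and measured 0.019 and 0.031 FPKM at day 4. Together 4 Kcnk genes rose, 4 fell and 5 were not called, beside 16% higher and 14.5% lower over all genes. The group sum went from 17.6 and 16.04 FPKM to 9.16 and 9.19. Kcnk5, the alkali-activated TASK-2, was the second most abundant at day 4 but was not called, at 3.34 and 1.68 FPKM (2.62 in replicate 2 without the divergent vials) against 2.31 and 1.96. Leaving out the divergent vials added Kcnk9 to the fallers and changed no other call of the group. In that fit 27.1% of all genes were called higher and 33.6% lower.

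Channels gated by intracellular ions changed little in sum, from 2.67 and 1.98 FPKM to 3.14 and 3.08. The small-conductance calcium-activated genes Kcnn2 and Kcnn3, known for the afterhyperpolarisation of neurons, were the called members and both rose. Over all genes 16% were called higher and 14.5% lower. Kcnn2 went from 0.106 and 0.182 FPKM to 0.460 and 0.511 (rise of 1.28, SE 0.24, adjusted p = 0.0295), and Kcnn3 from 0.089 and 0.079 to 0.366 and 0.324 (rise of 1.27, SE 0.15, adjusted p = 0.0122). The most abundant, Kcnn1, was not called at 1.19 and 0.547 FPKM against 1.23 and 1.05. Kcnma1, the pore of the large-conductance BK channel, measured 0.220 and 0.252 FPKM at day 0 and 0.418 and 0.439 at day 4, which missed the threshold (difference 0.66, SE 0.18, adjusted p = 0.0678) and passed it without the divergent vials. The intermediate-conductance Kcnn4 was called lower only without the divergent vials or with the block, at 0.528 and 0.153 FPKM against 0.033 and 0.014. Without those vials the group had 3 higher and 1 lower, beside 27.1% and 33.6% of all genes.

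Auxiliary subunits held the largest fitted rise of the Kcn genes. Of the 15 tested, 8 were called higher and 4 lower, beside 16% and 14.5% of all genes. Kcnmb2, a BK beta subunit that gives the channel inactivation (chromosome 3, 31901861 to 32200180), measured 0.071 and 0.138 FPKM at day 0 and 9.21 and 11.9 at day 4, a rise of 5.71 (SE 0.31, adjusted p = 0.00467). It was then the highest Kcn gene of day 4, while its pore partner Kcnma1 reached 0.439 FPKM at most. The smooth muscle BK subunit Kcnmb1 went the other way, from 0.157 and 0.149 FPKM to 0.012 and 0.005 (log2 fold change -1.22, SE 0.09, adjusted p = 0.00568). Kcnmb4, the BK subunit of brain, was not called at 4.67 and 2.30 FPKM against 6.39 and 5.81, but was called higher with the block (adjusted p = 0.0328).

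Of the cytoplasmic beta subunits of Kcna channels, Kcnab1 and Kcnab2 rose and Kcnab3 fell. Kcnab1 (chromosome 3, 64949212 to 65378225), which can give Kcna channels fast inactivation, went from 0.252 and 0.214 FPKM to 5.79 and 6.80 (rise of 4.26, SE 0.25, adjusted p = 0.00470). Kcnab3 went from 0.905 and 0.636 FPKM to 0.299 and 0.195 (log2 fold change -1.33, SE 0.30, adjusted p = 0.0437). Among the single-pass Kcne subunits, Kcne3 (chromosome 7, 100176507 to 100184869), a partner of Kcnq1, went from 1.02 and 1.27 FPKM to 7.89 and 8.42 (rise of 2.73, SE 0.22, adjusted p = 0.00699). Its partner Kcnq1 was read at 0.038 and 0.013 FPKM at day 0 and 0.074 and 0.060 at day 4. Kcne1l, the X-linked member, fell from 1.08 and 0.817 FPKM to 0.217 and 0.260 (log2 fold change -1.62, SE 0.25, adjusted p = 0.0212). Kcne4 and Kcne2 were also called higher and Kcne1 lower, and Kcne2, at 0 in both day 0 RNA samples and at most 0.017 FPKM at day 4, lost its call with the block.

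The Kcnip genes encode calcium-binding partners (KChIPs) of Kcnd channels. Kcnip4 rose from 0.005 and 0.012 FPKM to 0.141 and 0.189, and Kcnip1 was called higher at levels of 0.036 FPKM at most and lost that call both without the divergent vials and with the block. Kcnip2 measured 0.399 and 0.153 FPKM against 0.968 and 0.790 and was called higher only without the divergent vials or with the block. Kcnip3, also known as the transcriptional repressor DREAM, was the most abundant at day 0, at 3.88 and 2.14 FPKM (3.11 in replicate 2 without the divergent vials) against 1.49 and 1.10. It was called lower only without the divergent vials (adjusted p = 0.0113) or with the block (adjusted p = 0.0143), and was named here after its values were seen. Dpp6 and Dpp10 encode the membrane partners of the same channels. Dpp10 rose from 0.025 and 0.044 FPKM to 0.586 and 0.698 (rise of 2.47, SE 0.18, adjusted p = 0.00600), while Dpp6 was not called at 0.106 and 0.114 against 0.170 and 0.162. Without the divergent vials 8 auxiliary genes were called higher and 5 lower, beside 27.1% and 33.6% of all genes in that fit. The summed level of the auxiliary subunits went from 12.6 and 7.92 FPKM to 33.0 and 36.0, the largest of any group at day 4.

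**Figure D3:**
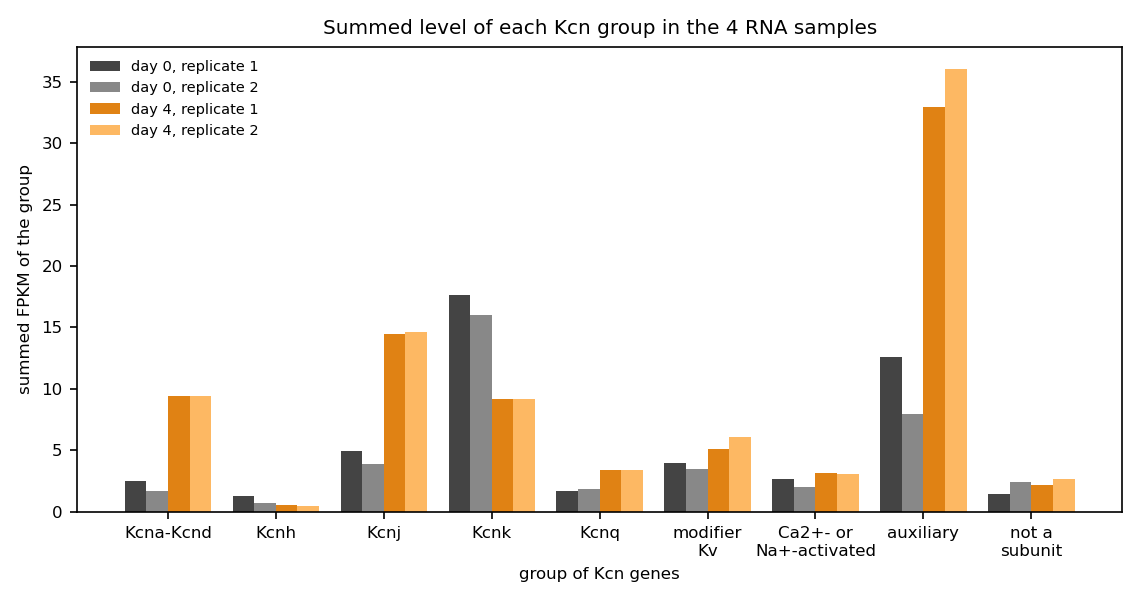
Summed FPKM (y axis, from 0) of the genes in each Kcn group (x axis), a bar per RNA sample, with day 0 in grey and day 4 in orange. The Kcnk sum is lower at day 4 (17.6 and 16.04 against 9.16 and 9.19), while the Kcnj and auxiliary sums are higher, the latter at 33.0 and 36.0.

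Symbols with the prefix that are not subunits gave no call. Kcnq1ot1, the noncoding RNA transcribed against Kcnq1 in an imprinted domain, measured 1.35 and 2.20 FPKM before RA and 1.88 and 2.43 afterwards, with overlap between the days. The overlap came with the divergent vials, without which day 0 replicate 2 was at 1.38 FPKM, below both day 4 RNA samples, and the gene was still not called (log2 fold change 0.61, adjusted p = 0.0522). Kcnrg, a regulator that resembles the assembly domain of Kv subunits, measured 0.068 and 0.163 FPKM against 0.267 and 0.196 and was called higher only without the divergent vials. The libraries are stranded, and Kcnq1, inside which Kcnq1ot1 lies on the opposite strand, was not called in the fit to all vials either. Kcnq1 was called higher without the divergent vials (adjusted p = 0.0423) and with the block (adjusted p = 0.019). Kcnip1 and Kcnmb1 on chromosome 11 overlap as well. Kcnmb1 was called lower in all 3 fits, while Kcnip1, at 0.036 FPKM at most in an RNA sample, was called higher in the fit to all vials but not without the divergent vials (adjusted p = 0.0699) or with the block (adjusted p = 0.0615).

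The vial values show how far the divergent pair bears on single genes. For Kcnk5 the 2 vials measured far below the rest of their RNA, and the 8 day 0 vials ran from 0.718 to 3.70 FPKM, against 1.72 to 2.65 at day 4. For Kcnip3 they ran from 0.944 to 4.07 FPKM at day 0 and from 0.851 to 1.73 at day 4. Kcnmb4 differed between the replicates of day 0 rather than between vials, from 1.98 to 5.91 FPKM over the 8 vials, against 5.57 to 6.67 at day 4. By contrast Kcnj2 (0.022 to 0.079 against 6.36 to 8.19 FPKM), Kcnk1 (9.91 to 12.2 against 3.10 to 4.49) and Kcnq5 (1.26 to 1.72 against 2.90 to 3.21) kept the days apart in every vial.

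**Figure D4:**
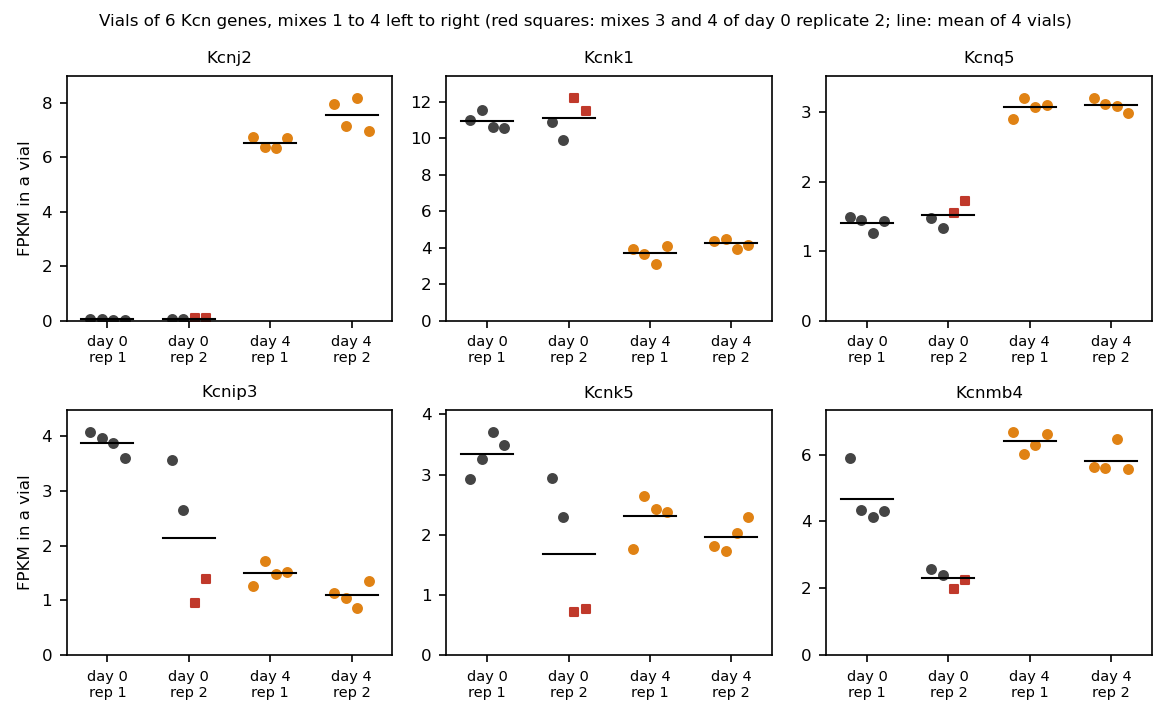
FPKM of 6 Kcn genes in each of the 16 vials (y axis from 0, a panel per gene), grouped by RNA sample along the x axis with mixes 1 to 4 from left to right and a line at the mean of the 4 vials. Red squares are mixes 3 and 4 of day 0 replicate 2, which lie below all other day 0 vials in Kcnip3, Kcnk5 and Kcnmb4, and within or above the range of the day in Kcnj2, Kcnk1 and Kcnq5.

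At transcript level 129 of the 180 Kcn transcripts were tested, and 27 rose (20.9%, background 10.2%) and 8 fell (6.20%, background 8.67%). Leaving out the divergent vials gave 34 that rose (26.4%, background 22.2%) and 25 that fell (19.4%, background 28.9%), and with the block 30 rose (23.3%, background 14.7%) and 15 fell (11.6%, background 20.9%). The 27 genes with 2 or more RefSeq transcripts were examined for unequal change, bearing in mind that the division of shared reads between isoforms is an estimate. Kcnk2 was the gene with transcripts called in either direction, all of them under 0.1 FPKM in both day 0 RNA samples. Its transcript NM_001159850 was listed at 0 in both day 0 RNA samples and measured 0.671 and 0.805 FPKM at day 4, or 73.1% and 76.0% of the gene. NM_001281848 rose as well, from 0.077 and 0.085 FPKM to 0.247 and 0.254 (log2 fold change 0.95, adjusted p = 0.0432). NM_001281847 was called lower, from 0.032 and 0.031 FPKM to 0 in both day 4 RNA samples. That day 0 level rests on 2 vials, the transcript being listed at 0 in the other 6, and NM_001281848 was at 0 in 2 day 0 vials.

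Kcnab1 had a transcript, NM_010597, that held 95.7% and 43.0% of the gene at day 0 and 31.3% and 19.5% at day 4, and a transcript, NM_001289450, that reached 68.7% and 80.5% at day 4. Both were called higher, by 2.69 (SE 0.45, adjusted p = 0.0365) and 4.93 (SE 0.50, adjusted p = 0.0185), and the day 0 shares rest on levels of 0.241 FPKM at most. The share of NM_001289450 at day 0 was 4.27% in replicate 1 and 57.0% in replicate 2. The latter came from the divergent vials, at 0.216 and 0.271 FPKM. Without them this transcript was at 0 in day 0 replicate 2, beside 0.149 FPKM for NM_010597. The spread of the day 0 shares thus depends on those vials, and a change of share was not tested. Kcne3 had 5 transcripts, 4 of them called higher, and its gene total was divided differently in the replicates of day 4, with NM_001190950 at 27.2% and 45.1%. Kcnab2, Kcnip2 and Kcnip4 also held both called and uncalled or unread transcripts, 1, 1 and 2 of them called higher. Kcns3 was divided between a pair of transcripts whose shares in the day 0 replicates were 84.1% and 32.8% for NM_173417, and neither transcript was called. The lower share depends on the divergent vials, where NM_173417 was at 0 and 0.503 FPKM. Without them it was at 1.14 FPKM in day 0 replicate 2, beside 1.05 FPKM for NM_001168564.

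**Figure D5:**
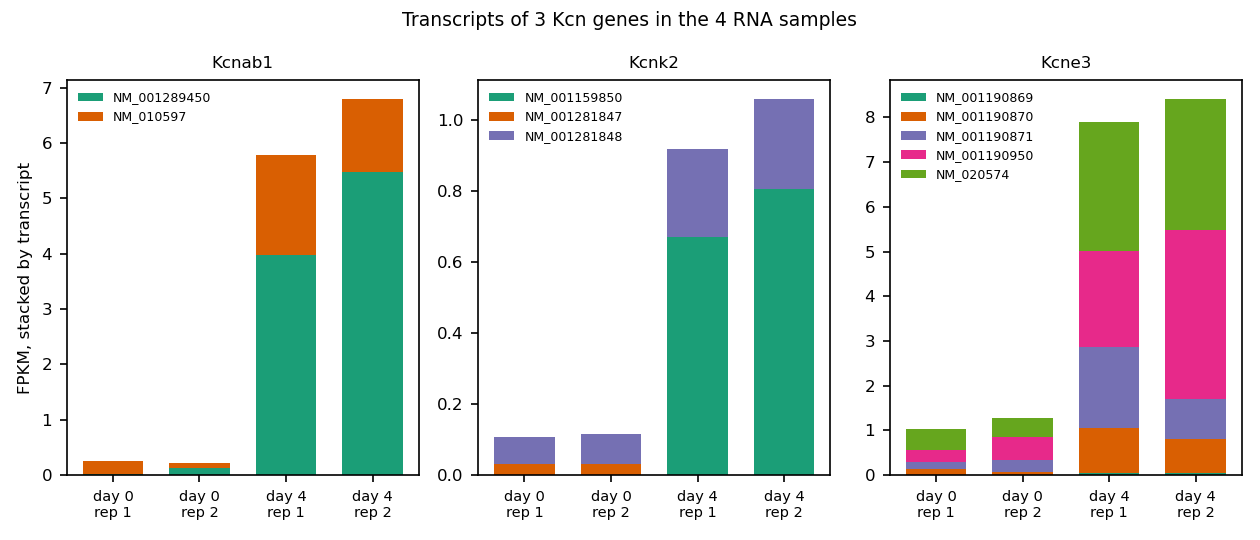
FPKM of Kcnab1, Kcnk2 and Kcne3 (y axes from 0) in the 4 RNA samples, stacked by RefSeq transcript (colours). Kcnk2 at day 4 is mostly NM_001159850, which has no bar at day 0, and Kcnab1 at day 4 is mostly NM_001289450.

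Genes that work with potassium channels were described from lists of known members, with the same background of 16% higher and 14.5% lower in the fit to all vials, and of 27.1% higher and 33.6% lower without the divergent vials. Of 14 partners outside the Kcn symbols, 3 rose and 3 fell, with a median log2 fold change of 0.02, and without the divergent vials 4 rose and 4 fell. Dpp10 rose most and Lrrc38, a BK gamma subunit, fell most, from 0.111 and 0.107 FPKM to 0.005 and 0.017. The most abundant partner, the anchoring protein gene Akap9, was not called at 7.67 and 8.98 FPKM against 12.8 and 13.4. Of 27 other voltage-gated cation channel genes tested, 5 rose and 4 fell, with a median of -0.05. The sodium channel pore Scn2a rose from 0.111 and 0.113 FPKM to 0.505 and 0.493 (rise of 1.50, SE 0.16, adjusted p = 0.0107). Without the divergent vials 7 rose and 9 fell, against that fit's higher background of 27.1% and 33.6%.

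The 20 genes of the sodium-potassium pump and potassium cotransport build the gradient that the channels use, and 2 rose and 5 fell, with a median of -0.34. The pump beta subunit Atp1b1 rose from 5.02 and 5.77 FPKM to 27.7 and 29.7 (rise of 2.39, SE 0.16, adjusted p = 0.00541), and the pump regulator Fxyd2 fell most, from 1.03 and 0.406 FPKM to 0.029 and 0.064. Without the divergent vials (background 27.1% and 33.6%) 3 rose and 9 fell. Of 9 genes of the REST complex, which represses neuronal genes including ion channels, 2 rose and 1 fell, or 3 and 5 without the divergent vials. Rest itself was not called (32.9 and 23.7 FPKM against 21.1 and 21.0), Rcor3 rose most and Rcor2 fell from 45.5 and 24.4 FPKM to 8.54 and 7.42. Hdac2, the most abundant of that list, rose from 103 and 164 FPKM to 280 and 312.

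Markers of the treatment and of cell types moved between the days as well. Their counts in the fit to all vials stand beside 16% higher and 14.5% lower over all genes. Of 10 RA response genes 8 rose and 1 fell, with a median of 4.87, led in level by the receptor gene Rarb at 0.190 and 0.200 FPKM against 106 and 108. The labelled cell type was checked on 10 pluripotency markers, which summed to 207 and 151 FPKM at day 0 and 13.8 and 9.08 at day 4, with 9 called lower and Pou5f1 the most abundant. The 9 endoderm markers summed to 17.0 and 15.3 against 78.5 and 78.1 FPKM (5 higher, 0 lower, Gata6 the most abundant) and the 8 glial markers to 13.9 and 14.4 against 56.2 and 54.5 (3 higher, 1 lower, Pdgfra the most abundant). The median log2 fold change was 1.18 for the endoderm list and 0.24 for the glial list, where 4 markers were not called. The glial sum therefore does not stand for the list as a whole. The RA response and pluripotency counts were the same without the divergent vials, while 6 endoderm markers were called higher and 2 lower, and 3 glial markers higher and 3 lower, beside 27.1% higher and 33.6% lower over all genes in that fit.

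For the excitable tissues in which many of these channels are best known, the 12 neuronal markers summed to 49.5 and 29.2 against 19.2 and 17.7 FPKM (3 higher, 4 lower, Stmn2 the most abundant), and the 10 neural progenitor markers to 34.8 and 31.4 against 27.6 and 28.5 (2 higher, 2 lower, Nes). The 9 cardiac markers summed to 13.9 and 7.23 against 5.25 and 3.96 (0 higher, 3 lower, Myl7), and the 8 smooth muscle and fibroblast markers to 135 and 56.3 against 192 and 179 (1 higher, 2 lower, Col3a1). Endothelium and blood (10 markers) summed to 116 and 92.3 against 220 and 163 FPKM (2 higher, 3 lower, Hbb-bh1), and epithelium (6 markers) to 976 and 418 against 88.5 and 72.2 (0 higher, 4 lower, Krt8). These counts are from the fit to all vials, which called 16% of all genes higher and 14.5% lower. Despite their higher sums, the median log2 fold change was -1.03 for the smooth muscle and fibroblast list and -0.08 for endothelium and blood. With the divergent vials left out, where 27.1% of all genes were called higher and 33.6% lower, 5 neuronal markers were called higher and 5 lower, and 3 neural progenitor markers higher and 3 lower. In that fit the cardiac list had 0 higher and 8 lower, and the smooth muscle and fibroblast list 1 and 4. Endothelium and blood had 3 higher and 4 lower, and epithelium 1 and 5. No marker of these lists was listed at 0 in every library, although Myl2 and Nkx2-5 were at 0 in both day 4 RNA samples. The part of these cell types in the channel changes was not tested.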

How the data were processed

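Per the labels and the study's methods, the authors mapped paired-end 100-bp reads of 16 stranded total RNA libraries with Bowtie2 2.1.0 to a reference of mm10 RefSeq and spike-in transcripts, quantified isoforms with RSEM 1.2.18 and deposited FPKM values scaled between libraries by TMM. Dividing reads among isoforms and rescaling can both move low values. Here spike-in rows were left out, the FPKM of all transcripts with the same symbol were added up (99.2% of RefSeq transcripts matched a symbol), and the 4 vials of an RNA sample were averaged. The RNA replicate of each vial was taken from the study's sample description.

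The days were compared with limma 3.58.1 (R 4.3.3, eBayes with a trend) on log2(FPKM + 0.1), 2 against 2, since an exact permutation test of 2 against 2 gives a p of 0.333 at the least, and p-values were adjusted over all features above 0 in any library. The script was tested on simulated data. The study repeated its procedure for the replicates, and the differences between replicates 1 and 2 correlated between the days (r = 0.768 across 11584 genes, which are not independent replicates), so a fit with the replicate number as a block is given where it changed a call.

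Named were, in each group, the 3 called genes with the largest change in each direction and the most abundant member, the 2 largest changes in a group without a call, and the 10 most abundant Kcn genes. In each list of channel partners, other cation channels, pumps, the REST complex and RA response, the largest called change in each direction and the most abundant gene were named. Other Kcn genes were named after their values were seen, as members of small counts, neighbours or partners. Some genes that the rule picks are not reported here. Members and lists, markers of cell types included, were chosen with earlier results of these data known. Alternatives varied the offset, filter, variance model, averaging, scaling, vials and replicates. Gene positions, names and promoter sequences came from RefSeq tables (GRCm38.p6, the assembly of mm10).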

Additional observations from a re-analysis of the deposited data

Results flagged for a closer look

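Over 72 sets of 8 vials of a day, a set for each named gene and day, 1 value was flagged as standing alone, far from the rest. Kcnh5 measured 0.14 FPKM in the mix 3 vial of day 0 replicate 1, against 0.068 to 0.098 FPKM in the other day 0 vials, and its gap to the nearest vial made up 0.583 of the range. Chance gives such a gap in about 1 in 20 sets of independent values. Each set here mixes vials of 2 RNA samples, so that rate cannot be applied to the 72. A gap to the nearest vial also misses vials that lie apart as a pair. For Kcnk5 at day 0, mixes 3 and 4 of replicate 2 measured 0.718 and 0.764 FPKM. The other day 0 vials measured 2.3 to 3.70 FPKM, and neither value was flagged. The measure therefore cannot tell how many vials diverged.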

How the results depend on the processing

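All 30 called Kcn genes that the naming rule picked kept their direction under the 16 alternatives in which each could be fitted (a filter at a mean of 0.1 or 1 FPKM leaves 50 or 16 Kcn genes). In every called Kcn gene the RNA samples of the days did not overlap, so leaving out an RNA sample could not reverse its direction. Counts of calls depended on the replicates. Among Kcn genes the 26 higher became 8 at a mean of 1 FPKM or more and 12 in the mix 4 vials alone. The 17 lower became 11 and 2 at means of 0.1 and 1 FPKM, 2 in the mix 4 vials, 32 without the divergent vials, 27 with the replicate block and 0 to 24 with an RNA sample left out. No gene was called with either day 4 RNA sample left out, where the lone sample is taken to vary like the others. For transcripts the 27 higher became 9 at 1 FPKM, 0 in the mix 4 vials and 0 to 21 with an RNA sample left out, and the 8 lower became 5 and 2 under the filters, 1, 25 without the divergent vials, 15 with the block and 0 to 25. For the 61 partner, cation channel and pump genes the 10 higher became 2 at 1 FPKM, 4 in the mix 4 vials and 0 to 9, and the 12 lower became 7 and 3 under the filters, 5 with no filter, 6 with vials averaged as logs, 0 in the mix 4 vials, 22 without the divergent vials, 19 with the block and 0 to 20. For the filters, the averaging and the mix 4 vials the shares of all genes or transcripts called are not given here. Those counts therefore show how the fits differ and not a trait of Kcn genes. The causes were not tested beyond the smaller number of genes or samples.

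Of the 30 called genes 19 lost their call in the mix 4 vials, 9 without day 0 replicate 1 and 30 without either day 4 RNA sample. Among the 37 genes that the naming rule picked only uncalled ones reversed. Kcnh2 (-0.10) became 0.0223 under median ratio scaling, 0.27 in the mix 4 vials and -0.60 to 0.41 with an RNA sample left out. Kcnk5 (-0.15) became 0.47 in the mix 4 vials and -0.63 to 0.32, Kcnn1 (0.43) -0.0655 to 0.93 and Kcnq1ot1 (0.29) -0.0423 to 0.62 with an RNA sample left out. The blocked fit lost the calls of Kcne2 and Kcnip1, and most calls it added are named in the results. With 2 RNA samples a day and no read counts, the precision of levels under 0.1 FPKM is unknown.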
